A study of Mus musculus with 25 samples.

Results

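The circadian clock genes described here are 10 genes taken by symbol. They are the transcriptional activator Arntl, the repressors Per1, Per2, Per3, Ciart and Bhlhe40, the nuclear receptors Nr1d1 and Nr1d2, and the output factors Dbp and Tef. All 10 were among the 23990 genes of the deposited expression table. The study profiled prefrontal cortex RNA of wild type C57BL/6 mice aged 10 weeks, in 25 samples of 6 groups, to ask what social defeat and a phenolic treatment change in each sex. The group used here is the stressed males given vehicle before and throughout social defeat, a procedure of repeated exposure to an aggressor (replicates 1 to 5). Column names of the table match this group alone, if a column's letter is taken to mark its group and the digit its replicate. The other 20 columns were not used here, and stress, treatment and sex are therefore not compared. Whether every library is from its own animal is not stated, and the hour of dissection is not given in the sources used here.

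In the mammalian clock, ARNTL (also called BMAL1) pairs with CLOCK or NPAS2 and binds E-box sequences to switch on Per and Cry genes, whose proteins return to repress that pair. A second loop runs through the REV-ERB receptors (Nr1d1 and Nr1d2), which repress Arntl through response elements shared with the activating ROR receptors. Dbp and Tef encode related leucine zipper factors that act on D-boxes in output genes. In mouse tissues sampled around the clock, Arntl peaks about opposite to Nr1d1, Dbp and the Per genes. Cortical neurons and glia carry this clock, and Per1 and Bhlhe40 also respond to neuronal activity.

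The promoters show which of these elements lie next to the start sites. RefSeq windows from 250 bases before to 50 after a start site (GRCm38.p6) were found for 8 of the 10 genes, in 11 windows, with none matched for Per2 and Bhlhe40. Both strands were searched for the E-box CACGTG, its variant CACGTT, the D-box TTATGTAA, the palindromic D-box TTACGTAA, the ROR core AGGTCA and the cAMP response element TGACGTCA. The E-box occurred in 4 of the 11 windows, from Ciart, Per1 and Tef, and in 7.15% of all 32851 windows. The D-box occurred in the Per3 window and in 0.938% of all windows, and the variant E-box in Nr1d1 and 4.68%. The ROR core occurred in 3 of the 11 windows, from Arntl, Nr1d2 and Per1, and in 16.3% of all windows. In Arntl it began 31 bases after the start site. The Dbp window matched none of the elements searched, and Arntl and Per1 each had a further window without a match. The palindromic D-box (0.119% of all windows) and the cAMP element (1.79%) matched no window of these genes. These are matches of letters, and they are not evidence that a factor binds there. Stretches that hold E-boxes and D-boxes are shown with the matched letters in capitals, 5′ to 3′ in the direction of the gene. The ROR core is shown only where it lies near an E-box, in Per1, and its matches in Arntl and Nr1d2 are not printed.
Ciart, chr3:95882243-95882366, minus strand, 3 E-boxes: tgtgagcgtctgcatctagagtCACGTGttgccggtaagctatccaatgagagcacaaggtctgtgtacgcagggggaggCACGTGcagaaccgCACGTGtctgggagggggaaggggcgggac
Per1, chr11:69098761-69098841, plus strand, an E-box and then the ROR core on the other strand: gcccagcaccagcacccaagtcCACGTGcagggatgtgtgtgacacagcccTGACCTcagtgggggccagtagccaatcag
Tef, chr15:81811254-81811305, plus strand, an E-box before an internal start site: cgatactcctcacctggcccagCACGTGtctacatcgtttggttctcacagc
Nr1d1, chr11:98775378-98775427, minus strand, the variant E-box on the other strand: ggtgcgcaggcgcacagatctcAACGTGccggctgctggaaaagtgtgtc
Per3, chr4:151044794-151044892, minus strand, a pair of D-boxes: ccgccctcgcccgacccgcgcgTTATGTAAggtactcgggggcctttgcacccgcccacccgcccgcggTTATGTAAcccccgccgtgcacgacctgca
By the GENCODE M21 annotation of each gene itself, the Nr1d1 and Per3 stretches lie upstream of it and the Per1 stretch and the Tef stretch shown lie in an intron, while 9 bases of the Ciart stretch fall in an exon. Tef has a further E-box in its other window, at position -127 from that start site, in a stretch of 52 bases that lies wholly in an exon and is not printed.

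Gene-assigned reads numbered 34565147 to 44265039 a library. Levels are given in CPM, the usual depth-scaled read count, here relative to the effective library size, and each is a mean ± SD over libraries (n = 5) unless a replicate is named. Per library, 3 reads correspond to 0.0673 to 0.0870 CPM, far under every level of the 10 genes. All 10 passed the minimum of 5 reads on average for the test of variation. That test asks whether reads of a gene are spread over the libraries as their sizes predict (chi-square, Benjamini-Hochberg over 19239 genes). It was passed by 9 of the 10 clock genes and by 74.4% of all genes tested, so that passing it does not set these genes apart. Among genes that averaged at least 1 CPM, as all 10 did, 11841 of 14524 passed. Intervals named here are exact Poisson 95% intervals and cover counting error only.

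Arntl, the activator of the positive limb, had the narrowest span of the 10 in CPM. It lies on chromosome 7 (113207465 to 113314126, plus strand, GRCm38). It stood at 27.2, 26.7, 25.4, 26.3 and 27.7 CPM in replicates 1 to 5 (26.7 ± 0.864 CPM). The libraries thus lay within a factor of 1.09 of each other, with overlapping intervals. Arntl was the one member that did not pass the test (adjusted p = 0.346). Its coefficient of variation beyond counting error was 0.998%, and 4.63% of the 14524 genes that averaged 1 CPM or more had a lower one. That coefficient is poorly fixed: it was 2.89% when scaled to total reads, and 0 to 2.14% when 1 replicate was left out, with 0 without replicate 3 or replicate 5.

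The Per genes encode the period repressors, and they did not share 1 pattern. Per1 (chromosome 11, 69095217 to 69109960, plus strand) stood at 86.3, 82.4, 76.4, 94.2 and 86.3 CPM in replicates 1 to 5 (85.1 ± 6.48 CPM). Per2 (chromosome 1, 91415982 to 91459324, minus strand) stood at 29.1, 27.8, 20.02, 33.7 and 29.5 CPM (28.0 ± 4.98 CPM). Both peaked in replicate 4 and had their lowest value in replicate 3, a span of 1.23-fold in Per1 and 1.68-fold in Per2, and both varied beyond counting error (adjusted p = 3.94e-15 and 1.02e-29). Per3 (chromosome 4, 151003652 to 151044665, minus strand) stood at 49.2, 49.1, 44.4, 46.7 and 45.3 CPM (46.9 ± 2.19 CPM). Its libraries spanned 1.11-fold, with replicates 1 and 2 on top (adjusted p = 0.00352). The Per1 to Per2 ratio was 3.82 in replicate 3 and 2.80 to 2.96 in the others, since Per2 was lower there than Per1 relative to their other libraries.

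The REV-ERB receptor genes also differed from each other. Nr1d1 (chromosome 11, 98767932 to 98775333, minus strand) stood at 78.9, 81.7, 81.0, 92.6 and 93.6 CPM in replicates 1 to 5 (85.6 ± 6.96 CPM). Replicates 4 and 5 lay above the other 3, and their intervals did not overlap those of the other 3. Nr1d1 shares 263 exon bases, 8.55% of its exon length, with Thra on the opposite strand, a thyroid hormone receptor gene that averaged 30525 reads a library. Strand was not stated for the counting, so reads there cannot be told apart. Nr1d2 (chromosome 14, 18204054 to 18239127, minus strand) stood at 85.6, 74.4, 91.2, 103.8 and 87.2 CPM (88.4 ± 10.6 CPM). It was lowest in replicate 2 and highest in replicate 4, 1.39-fold apart. The Nr1d1 to Nr1d2 ratio ranged between 0.887 and 1.10.

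The output factors Dbp and Tef moved in parallel. Dbp (chromosome 7, 45705088 to 45710203, plus strand), a D-box activator, stood at 37.2, 31.0, 30.4, 40.04 and 38.2 CPM in replicates 1 to 5 (35.4 ± 4.39 CPM). Replicates 2 and 3 were low, with intervals below those of the other 3. Of the Dbp exon length, 18.0% (539 bases) overlaps Sphk2 on the opposite strand, with the same limit on strand. Tef (chromosome 15, 81802421 to 81826863, plus strand), thyrotroph embryonic factor, stood at 316.6, 289.8, 275.4, 338.5 and 323.7 CPM (309 ± 25.7 CPM). Dbp spanned 1.32-fold and Tef 1.23-fold (adjusted p = 4.75e-17 and 3.69e-71). The Dbp to Tef ratio spanned 1.11-fold, at 0.107 to 0.118.

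The repressors Bhlhe40 and Ciart had the highest coefficients of variation of the 10, followed by Per2, while by span Per2 came before Ciart (1.68-fold against 1.64-fold). Ciart (chromosome 3, 95878503 to 95882251, minus strand), which represses the CLOCK and BMAL1 pair, stood at 8.90, 7.56, 8.70, 12.4 and 9.70 CPM in replicates 1 to 5 (9.45 ± 1.81 CPM). It was the least abundant member in CPM, with 289 to 427 reads a library. Bhlhe40 (chromosome 6, 108660629 to 108666925, plus strand), the E-box repressor DEC1, stood at 68.2, 59.3, 61.4, 124.2 and 80.1 CPM (78.6 ± 26.7 CPM). Replicate 4 was 2.09 times as high as replicate 2, and its interval lay above those of the other 4. The coefficient of variation beyond counting error was 33.9% for Bhlhe40, 18.4% for Ciart and 17.5% for Per2, above those of 97.6%, 86.0% and 84.4% of genes with at least 1 CPM. Without replicate 4 it was 13.8% for Bhlhe40 and 8.64% for Ciart, against 16.5% for Per2, and without replicate 3 it was 7.88% for Per2.

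**Figure D1:**
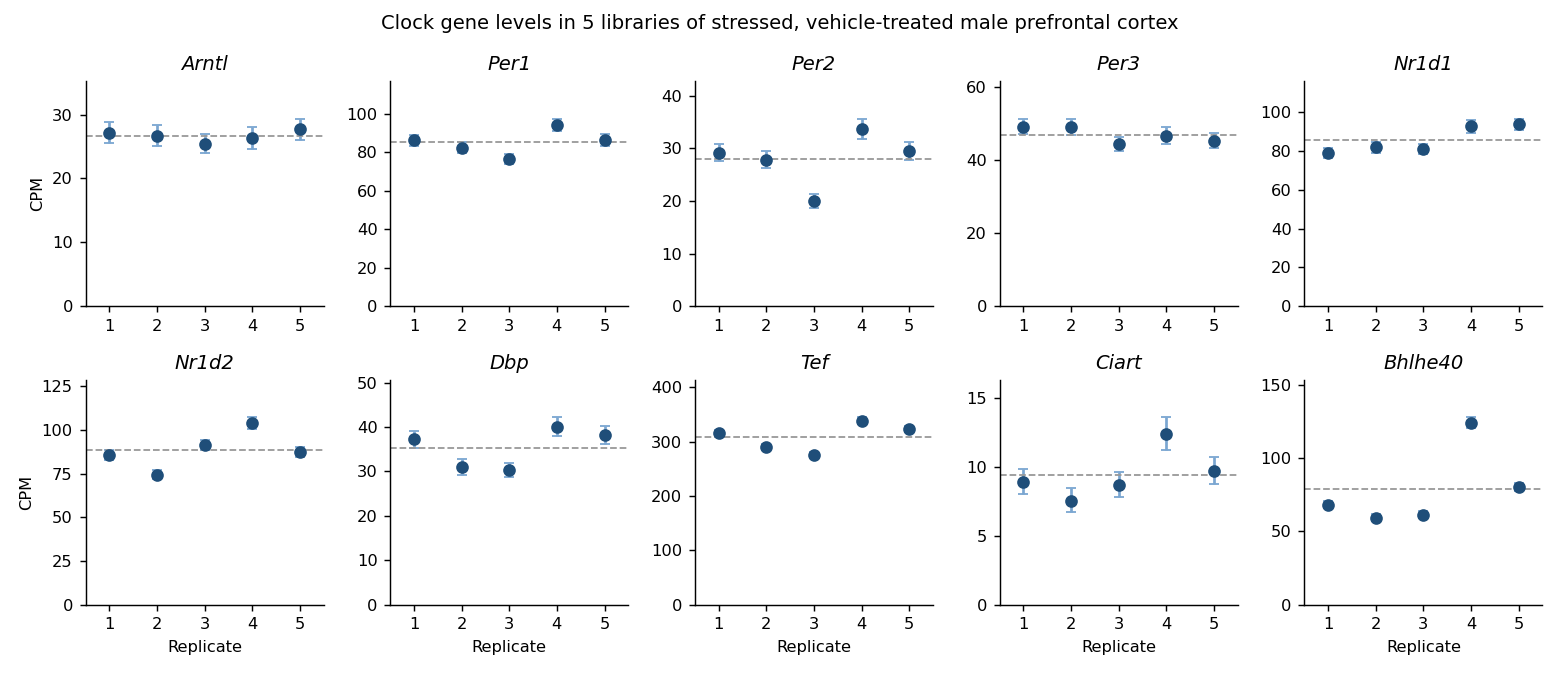
Level of each of the 10 clock genes in CPM (vertical axes, from 0) in replicates 1 to 5 (horizontal axes). Points are libraries, bars are exact Poisson 95% intervals (counting error only) and dashed lines are means. Arntl stays between 25.4 and 27.7 CPM, Per2 is low in replicate 3 (20.02 CPM) and Bhlhe40 high in replicate 4 (124.2 CPM).

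Per kilobase of exon, mean levels ran from Tef and Nr1d1 at the top down to Arntl. Tef led with 39.3 ± 3.27 RPKM, with no overlap between its libraries and those of the next gene, Nr1d1 (27.8 ± 2.26 RPKM). Bhlhe40 (16.7 ± 5.68 RPKM), Nr1d2 (16.3 ± 1.96 RPKM) and Per1 (15.1 ± 1.15 RPKM) followed, with overlapping ranges. The range of Bhlhe40 also reached that of Nr1d1, through replicate 4 alone. Dbp (11.8 ± 1.47 RPKM) lay below Per1, with a highest library of 13.4 RPKM against a lowest of 13.6 RPKM for Per1. Per3 (4.89 ± 0.228 RPKM), Per2 (4.79 ± 0.851 RPKM), Ciart (4.18 ± 0.800 RPKM) and Arntl (3.55 ± 0.115 RPKM) formed the low end, and each range overlapped the next. These levels divide by the union of all annotated exons, which understates a gene whose long isoforms are little used.

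**Figure D2:**
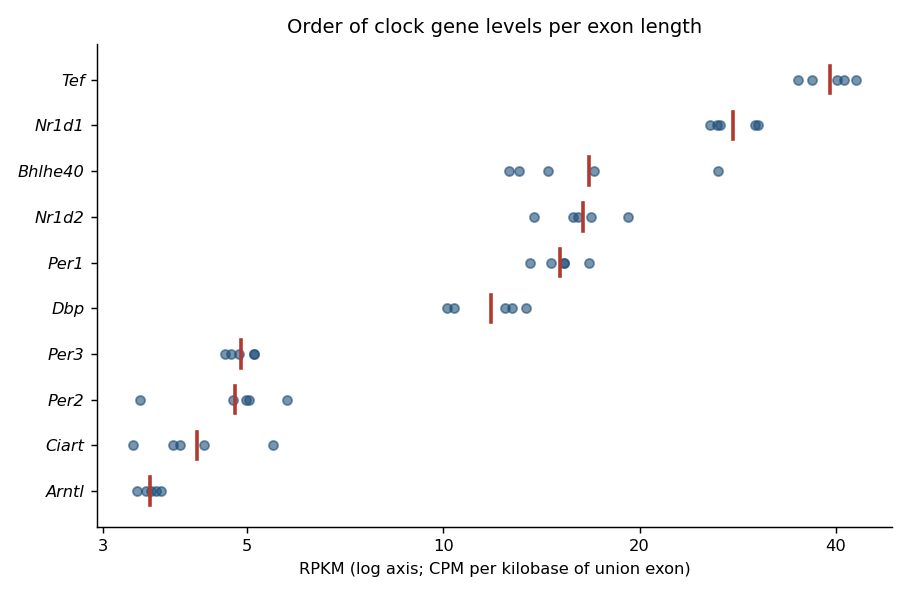
Level per exon length of the 10 clock genes, highest at the top, in RPKM on a log axis. Points are the 5 libraries and red bars are means. Tef stands alone at 39.3 RPKM, while Per3, Per2, Ciart and Arntl lie between 3.34 and 5.75 RPKM, where the ranges of Per3 and Arntl do not overlap.

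Whether the other genes ran opposite to Arntl could not be read from these libraries, since Arntl did not vary beyond counting error and the order it gives them may be counting error throughout. The counts that follow describe the values as they stand. Each gene was compared with Arntl over the 10 pairs of libraries, counting the pairs in which the gene and Arntl were not higher in the same library. Per1, Per2, Per3, Dbp and Tef were opposite to Arntl in 3 pairs each, Nr1d1, Ciart and Bhlhe40 in 4, and Nr1d2 in 6. The median over these 9 members was 3 pairs, against 5 pairs over 14523 genes of at least 1 CPM. More than 5 opposite pairs were found for 1 of the 9 members and for 43.7% of those genes. Single libraries moved these counts. Without replicate 3, each of the 9 members was opposite in 3 of 6 pairs. Without replicate 4, Per1, Per2, Dbp and Tef were opposite in 0 of 6 pairs and Nr1d2 in 3. Without replicate 5, Nr1d1 and Nr1d2 were opposite in 4 of 6 pairs each. With fewer than 6 libraries no correlation is given. The Dbp to Arntl ratio ranged between 1.16 (replicate 2) and 1.52 (replicate 4), and the Per2 to Arntl ratio between 0.787 (replicate 3) and 1.28 (replicate 4).

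**Figure D3:**
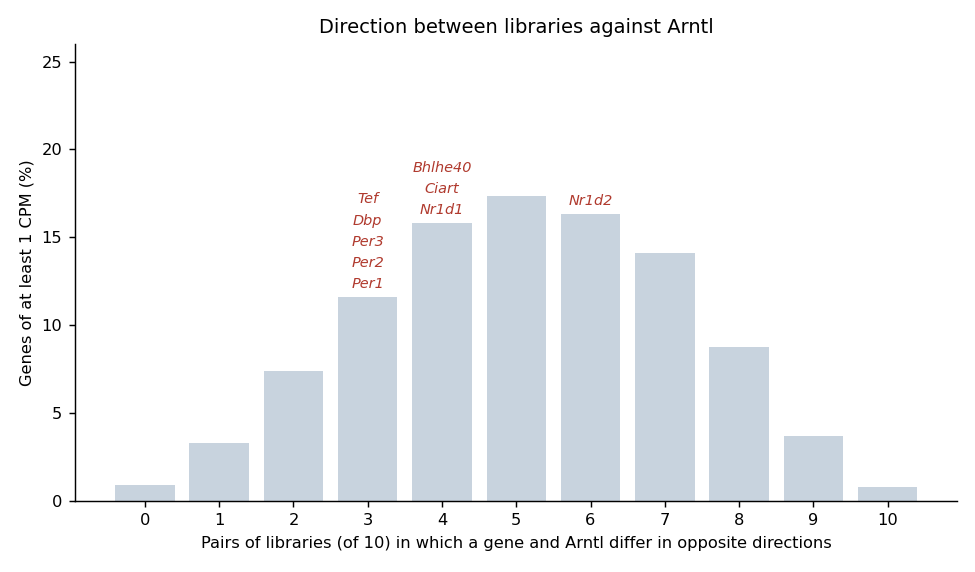
Share of 14523 genes of at least 1 CPM (vertical axis, percent) by the number of pairs of libraries, of 10, in which the gene and Arntl differ in opposite directions (horizontal axis). Names in red place the 9 other clock genes above their bar. Per1, Per2, Per3, Dbp and Tef stand at 3 pairs and Nr1d2 at 6.

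Part of the set ordered the libraries alike. Tef, Dbp, Per1 and Per2 were all highest in replicate 4, followed by 5, 1, 2 and 3. This order, noticed after the values were seen, was shared with Tef by 3 of the 9 other members and by 1.24% of 14523 genes. Scaled by median of ratios, Per1 left it. Among the other 9, 5 shared it without replicate 2 and 6 without replicate 3. Ciart and Bhlhe40 had the same order but for replicates 2 and 3 exchanged. Counting error leaves much of the shared order unresolved. Intervals of replicates 5 and 1 overlapped in Tef, and those of replicates 5, 1 and 2 in Per1 and Per2. In Dbp, intervals of replicates 4, 5 and 1 overlapped, as did those of replicates 2 and 3. Replicates 2 and 3 also had overlapping intervals in Ciart and Bhlhe40. Nr1d1, Nr1d2, Per3 and Arntl each had another order. In all, 7 of 10 members were highest in replicate 4, against 26.8% of genes of at least 1 CPM, and 6 of 10 were lowest in replicate 3, against 16.9%. The libraries come from 1 group, so these counts describe them and test no condition.

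**Figure D4:**
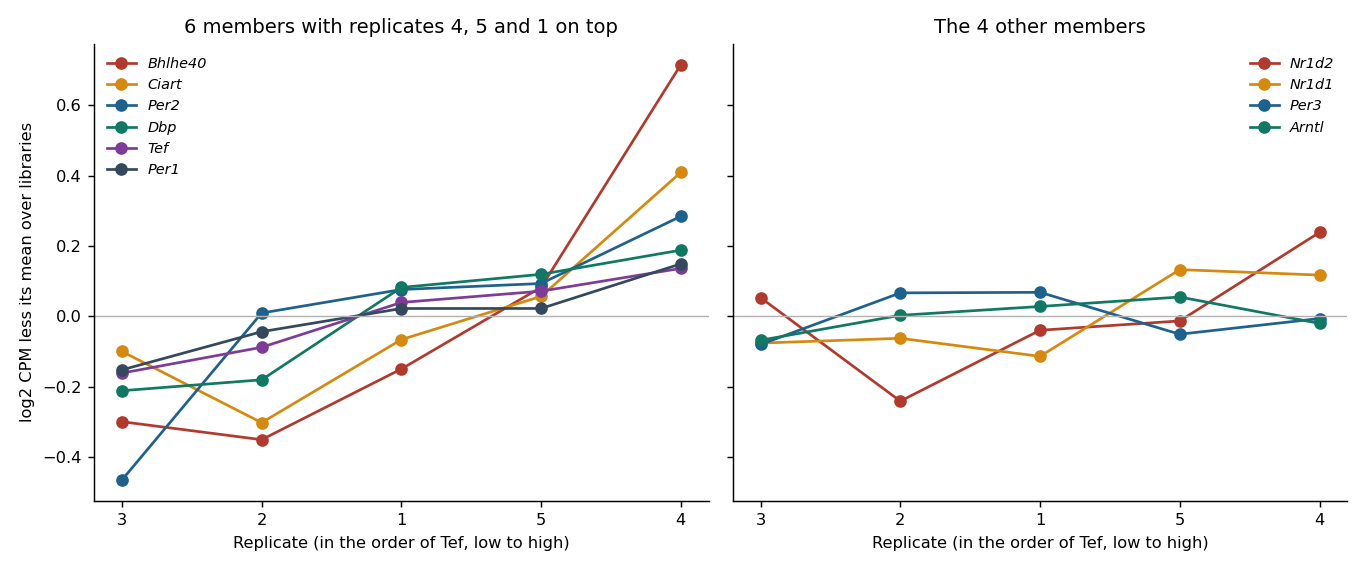
Difference of each clock gene from its own mean over libraries, in log2 CPM (vertical axis), with the replicates placed from the lowest to the highest in Tef (horizontal axis). The left panel holds Bhlhe40, Ciart, Per2, Dbp, Tef and Per1, all highest in replicate 4. The right panel holds Nr1d2, Nr1d1, Per3 and Arntl, whose orders differ.

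Marker genes of several cell types also differed between the libraries. Glutamatergic markers, which the label of cortex calls for, were present, with Slc17a7 at 1926 CPM. Genes listed for striatal projection neurons were present too, with Drd1 at 24.7 CPM, Adora2a at 4.25 CPM and Drd2 at 1.80 CPM. The 3 on that list summed to 38.0 CPM in replicate 3, the highest, and to 24.2 CPM in replicate 4, the lowest. Most of that sum is Drd1. Each of the 3 was highest in replicate 3, but Adora2a and Drd2 were lowest in replicate 2. Of the suprachiasmatic nucleus markers, Vip, also a peptide of cortical interneurons, averaged 26.3 CPM, Avp was under the level of 3 reads in each library, Prokr2 was at 1.27 CPM and Nms was not listed. The summed level of 4 oligodendrocyte genes was 3638 and 3679 CPM in replicates 4 and 5, against 5575 to 7959 CPM elsewhere, highest in replicate 3. The 4 glutamatergic genes summed to 6131 CPM in replicate 4 and to 5060 CPM in replicate 3. That difference lay almost wholly in Camk2a, a kinase gene, while Slc17a7 (1920.3 against 1961 CPM) and Neurod6 (103 against 107 CPM) were both slightly lower in replicate 4 than in replicate 3. The 3 leptomeningeal genes, each highest in replicate 4, summed to 19.5 CPM there against 2.09 to 6.93 CPM elsewhere. The 3 red blood cell genes summed to 168 CPM in replicate 4, against 91.1 CPM in replicate 2. None of these genes was at 0 in all libraries, and their part in the clock gene pattern was not tested. In bulk tissue, fewer cells of a type and less RNA per cell cannot be told apart.

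Relative to the glutamatergic sum, a scaling added after the values were seen, no member kept the order shared by Tef, Dbp, Per1 and Per2. Tef and Dbp shared another order, with replicate 1 highest, followed by 5, 4, 3 and 2. Per1 and Per2 each had an order of their own. Per 1000 CPM of that sum, Tef stood at 60.0, 53.8, 54.4, 55.2 and 56.2 CPM in replicates 1 to 5, and Per1 at 16.4, 15.3, 15.1, 15.4 and 15.0 CPM. On this scale Tef spanned 1.12-fold and Per1 and Nr1d1 1.09-fold each. Arntl spanned more than these, between 4.29 CPM in replicate 4 and 5.16 CPM in replicate 1, so it was not the steadiest gene there. Bhlhe40 remained highest in replicate 4, at 20.3 CPM per 1000 against 11.01 to 13.9 elsewhere, as did Ciart, at 2.02 against 1.40 to 1.72. They were the 2 members highest in replicate 4 on this scale. Against Arntl, Bhlhe40 was opposite in 7 of 10 pairs and Ciart and Nr1d1 in 6. In CPM, 43.7% of genes were opposite in at least 6 pairs. No share of all genes was computed on this scale for direction or highest library. Per2 remained lowest in replicate 3, at 3.96 against 5.12 to 5.53. Arntl passed the test of variation on it (adjusted p = 0.000803 by chi-square, with 0.000803 to 0.705 over all alternatives). Most of that sum is Camk2a, which ordered the libraries as Tef did before this scaling, from 2897 CPM in replicate 3 to 4010 CPM in replicate 4.

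Genes that neuronal activity or glucocorticoids induce were read as well, since Per1 and Bhlhe40 respond to such signals. Of 8 activity-induced genes, 7 were highest in replicate 4, as were 26.8% of all genes of at least 1 CPM. Their sum was 613 CPM there, against 415 to 483 CPM elsewhere. Arc, the cytoskeletal synaptic gene, reached 165 CPM in replicate 4, against 80.5 CPM in replicate 2, the libraries in which Bhlhe40 was highest and lowest. Fos had the same extremes, but its lowest value, 10.43 CPM in replicate 2, was close to the 10.44 CPM of replicate 1. In Bhlhe40, intervals of replicates 2 and 3 overlapped, so its lowest library is not fixed either. Npas4, Nr4a1, Junb, Fosb and Dusp1 were lowest in replicate 3 and Egr1 in replicate 1. Of 6 glucocorticoid-induced genes, 4 were highest in replicate 4, beside the same 26.8% of genes. The sum of the 6 ranged between 489 CPM in replicate 5 and 558 CPM in replicate 4. Whether these signals set the level of Bhlhe40 or Per1 was not tested.

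**Figure D5:**
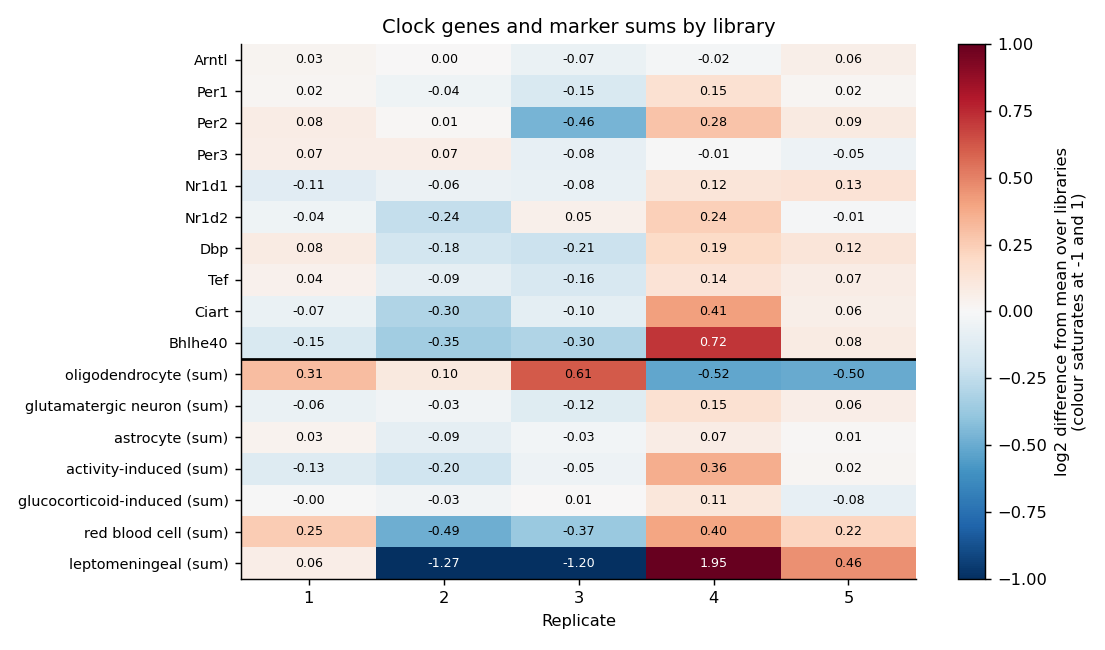
Difference from the mean over libraries, in log2, for the 10 clock genes (above the line) and for summed CPM of 7 marker lists (below it), by replicate (columns). Red is above and blue below the mean, and the colour saturates at -1 and 1. Bhlhe40 (0.72), the activity-induced sum (0.36) and the leptomeningeal sum (1.95) are highest in replicate 4, where the oligodendrocyte sum is lowest (-0.52).

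Other genes of the clock were read from a list of 21, all in the table. The test was passed by 20 of 21, against 74.4% of all genes, with Cry1 as the exception (adjusted p = 0.0662 by chi-square). Among genes of at least 1 CPM it was passed by 19 of 20 on the list and by 11841 of 14524 in all. Of the 20 with at least 1 CPM, 10 were highest in replicate 4, against 26.8% of genes. Their median coefficient of variation beyond counting error was 7.01%, that of the 10 members 10.1% and that of all genes of at least 1 CPM 8.25%.

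Among partners of the positive limb, Clock stood at 86.7 ± 6.51 CPM and Npas2, its paralogue in forebrain, at 42.6 ± 2.18 CPM. Per kilobase, Npas2 was at 8.88 RPKM and Clock at 6.32 RPKM, both above Arntl. The Arntl paralogue Arntl2 was at 8.61 ± 0.825 CPM. The cryptochromes are the partners of the PER proteins, and Cry2 (133 ± 7.07 CPM, 21.1 RPKM) stood above Cry1 (11.4 ± 0.822 CPM, 3.41 RPKM). Cry2 ordered the libraries as Tef did, at 134.6, 131.1, 122.7, 141.8 and 136.5 CPM in replicates 1 to 5.

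In the ROR family, which activates Arntl, Rora reached 67.8 CPM in replicate 4, against 39.8 to 47.8 CPM elsewhere. Rorb reached 34.0 CPM there, against 23.5 to 28.5 CPM elsewhere. Hlf, the third factor of the Dbp and Tef family, stood at 182 ± 26.1 CPM, with 226 CPM in replicate 4. In RPKM it lay at 27.2, between Tef and Dbp. Nfil3, a repressor at the same D-boxes, was at 8.86 ± 0.799 CPM, with replicate 1 highest and replicate 5 lowest. Bhlhe41 (DEC2), the paralogue of Bhlhe40, reached 28.4 CPM in replicate 4, against 20.6 CPM in replicate 2, a span of 1.38-fold against 2.09-fold in Bhlhe40.

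Genes of PER stability included kinases and a ubiquitin ligase. The kinase genes Csnk1d and Csnk1e stood at 127 ± 5.64 and 98.3 ± 4.55 CPM, and the ubiquitin ligase gene Btrc at 142 ± 9.81 CPM. Among output genes, the cell cycle kinase Wee1 reached 15.7 CPM in replicate 4, against 9.44 CPM in replicate 2. The deadenylase-like gene Noct reached 60.9 CPM in replicate 5, against 46.8 to 51.3 CPM elsewhere.

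Nearness to Arntl and to Dbp was measured by the root mean square difference of centred log2 CPM over the 5 libraries. The nearest genes were picked among 9875 genes with at least 10 CPM. For Arntl these were B630019K06Rik (0.00508), Apeh (0.00599) and Gnl1 (0.00754), against 0.0420 for the spread of Arntl itself. For Dbp they were Kcng1 (0.0305), Marc2 (0.0383) and Mertk (0.0385), against 0.164 for Dbp. With 5 libraries such likeness is a description of these samples. Arntl did not vary beyond counting error, so the genes nearest to it were picked on differences that may be counting error throughout.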

How the data were processed

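Total RNA of prefrontal cortex was sequenced. The deposited table holds log2 values, 1 column per library. Per the submitters' processing notes, the builds were mm10 and GRCm38, and edgeR, featureCounts (Subread 1.6.3), SAMtools 1.9 and STAR 2.6.1d were used. Not given in the sources used here are the annotation release, any gene filter and whether counting used strand. From the values, each is log2 CPM of reads plus 0.5, on an effective library size. Taking a column's minimum as 0 reads made 100% of values whole within 1e-06 reads.

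From these, reads, CPM and RPKM (union exon length, GENCODE M21, GRCm38) were computed with Python 3.11.15, numpy 2.4.6, pandas 2.3.3 and scipy 1.17.1, and drawn with matplotlib 3.10.9. Symbols matched 23846 of 23990 identifiers. A chi-square test (4 degrees of freedom, mean of at least 5 reads, Benjamini-Hochberg threshold 0.05) was tested on simulated data. Its p-values ask whether libraries differ beyond counting error, and such differences may be technical. They also depend on the number of reads, so they do not rank genes by spread. The 20 columns that fit several groups equally well by name were not used, so no comparison between groups was made. The members and lists were chosen with earlier results of these data known. Genes named are the members, other clock genes, listed markers, and the 3 genes most like Arntl and Dbp. Some listed genes are not reported here by name. Alternatives were other scalings, filters, reads added before the log, and leaving out each replicate.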

Additional observations from a re-analysis of the deposited data

Results flagged for a closer look

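Among 52 values (levels of the 31 clock genes, 13 marker sums and 8 ratios), 4 had 1 library that stood apart by Dixon's ratio at its 95% critical value. Chance flags about 1 in 20, or 2.6 here. Rora, a nuclear receptor that activates Arntl, was at 67.8 CPM in replicate 4, 1.55 times the mean of the others. Timeless was at 7.64 CPM in replicate 3, 1.52 times the mean of the others. The summed leptomeningeal genes were at 19.5 CPM in replicate 4, 4.73 times the mean of the others. The Per1 to Per2 ratio was 3.82 in replicate 3 and 2.80 to 2.96 elsewhere.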

How the results depend on the processing

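Among the 10 genes, 9 passed the test of variation under every scaling to reads, filter and left-out replicate. Scaled to the summed glutamatergic markers, an alternative added after the data were seen, 10 passed. On that scale 3 of 9 members ran opposite to Arntl in most pairs. There 1 shared the library order of Tef, itself changed, and 2 were highest in replicate 4. No share of all genes was computed on that scale for direction, order or highest library. The cause of these changes was not tested. Leaving out each replicate gave 0 to 2 members opposite to Arntl and 3 to 6 in the order of Tef, as fewer libraries have fewer orders; Nr1d2, opposite in 6 of 10 pairs, was so in 3 of 6 without replicate 3 or 4. Genes beyond counting error numbered 12646 to 13125 without 1 replicate, 12693 when 20 reads on average were asked for and 15862 with no filter. Member means moved by less than 1 SD in 70 of 70 alternatives. That says little, since leaving out a replicate cannot move a mean of 5 libraries that far. No paired analysis was possible because the columns of just 1 group carry names that fit the labels.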
